A study of Mus musculus with 14 samples.

Results

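Cdx1, Cdx2 and Isx are the homeobox genes described here. They were chosen by name as a pair of Cdx factors and the target gene of Cdx2 in the intestine, and they are 3 of the 18820 genes measured on the arrays. Each was read by 1 probe set, so no choice between probe sets was needed. The samples were 14 RNA samples from mouse gut organoids, hydrogel cultures in which stem cells of the gut lining grow into small hollow epithelial structures, each hybridised to 1 Affymetrix Mouse Gene ST 1.1 array. All of them came from mice of a mixed C57Bl6j/CBA background that carried 1 null and 1 floxed Cdx2 allele (Cdx2-/fl) together with the Lgr5-EGFP-Ires-CreERT2 knock-in, which marks Lgr5+ stem cells with EGFP and expresses an inducible Cre in them. The controls therefore had 1 working Cdx2 allele and not 2. Cdx2null SI SCs (n = 2) were small intestinal stem cells whose floxed allele had been recombined by 4-hydroxytamoxifen in culture, control Sto SCs (n = 2) were stem cells of the pyloric stomach, and control SI SCs (n = 3) were untreated small intestinal stem cells. These 3 groups were EGFP-high cells sorted from clonal organoids that, per the labels, had been kept in stomach medium, which holds EGF, Noggin, R-spondin, Wnt3a, Fgf10 and gastrin. Whole control organoids without a sort made the other 4 groups, namely Sto organoids in SI medium (n = 2) and in Sto medium (n = 1), and SI organoids in SI medium (n = 3) and in Sto medium (n = 1). SI medium lacks Wnt3a, Fgf10 and gastrin. Nothing in the labels says that replicates of a group came from separate mice, so p-values measure only the spread between these samples, part of which may be technical.

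Cdx1 and Cdx2 are vertebrate relatives of the fly gene caudal, and Cdx2 lies with Pdx1 and Gsx1 in the ParaHox cluster. Cdx2 marks the endoderm behind the stomach from the embryo onwards and binds enhancers of brush-border, junction and hormone receptor genes in the intestine, where it works together with Hnf4 and Gata factors. Cdx1 is most abundant in crypts, its gene is a direct target of Wnt signalling and of retinoic acid in mice, and both Cdx proteins read the same AT-rich element. Isx, the intestine-specific homeobox protein, is a repressor that acts after birth in the small intestine. It is induced by retinoic acid and lowers transcription of Scarb1, a receptor for lipids and carotenoids, and of Bco1, the enzyme that cleaves beta-carotene to retinal, which closes a feedback loop on vitamin A uptake.

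The sequences just before the transcription starts of Cdx2 and Isx are printed below because the 2 genes were high and low on nearly the same arrays. Each run holds the 250 bases upstream of the RefSeq start (assembly GRCm38.p6), read 5′ to 3′ on the gene's own strand. That of Cdx2 is chr5:147307250-147307499 on the minus strand and that of Isx is chr8:74872924-74873173 on the plus strand. Capitals mark an octamer (letters ATGCAAAT), a site for POU factors.
Cdx2: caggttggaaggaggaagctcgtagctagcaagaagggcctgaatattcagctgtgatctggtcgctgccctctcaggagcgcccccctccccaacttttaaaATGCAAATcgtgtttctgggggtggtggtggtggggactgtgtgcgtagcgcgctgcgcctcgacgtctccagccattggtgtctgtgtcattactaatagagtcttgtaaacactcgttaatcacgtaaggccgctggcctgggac
Isx: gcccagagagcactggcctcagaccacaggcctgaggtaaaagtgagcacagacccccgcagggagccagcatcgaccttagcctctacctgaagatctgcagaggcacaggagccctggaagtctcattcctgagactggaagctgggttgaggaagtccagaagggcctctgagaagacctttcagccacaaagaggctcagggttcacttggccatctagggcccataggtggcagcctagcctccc
The Cdx core element TTTAT and the longer TTTATG, searched on both strands and with the second overlapping the first, are in neither window. They occur in 37.3% and 10.8% of the 32851 RefSeq windows of this length. The octamer of Cdx2, searched after the sequence had been read, occurs in 1.60% of them. The Cdx2 window is the richer in CpG, with 13 CpG dinucleotides and 55.2% G+C, against 2 CpG and 58.8% G+C in the Isx window and medians of 6 and 52.4% over all windows.

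Levels are log2 expression values summarised by the authors with RMA-sketch, in which a difference of 1 is a 2-fold difference and silent genes keep a background value. Array medians ran from 4.72 to 5.05. All values (100%) were logs of linear signals rounded to 1 decimal on a pair of arrays, the one numbered 3 of control SI SCs and that numbered 3 of SI organoids in SI medium, against 0.155% to 0.231% of values elsewhere. The upper quartiles of this pair were 7.50 and 7.57, against 7.79 to 7.90. Markers of simple epithelium (Epcam, Cdh1, Krt8, Krt18 and Krt19) averaged 11.8 to 12.3 on every array, and of the 14 measured markers of mesenchyme, immune cells and endothelium only Vim, Acta2 and Cd68 exceeded 6 on any array. Of the 2 libraries that stood apart, the one labelled SI organoids in SI medium 1 carried stomach markers at stomach levels: Sox2 was at 9.21 and the gastric claudin Cldn18 at 12.2 there, against 3.69 and 3.85 (Sox2) and 5.42 and 3.94 (Cldn18) in SI organoids in SI medium 2 and 3. Whether its label is wrong was not tested. The array is kept under its label, and each difference that uses it is also given without it. The other was the library labelled Cdx2null SI SCs 1, in which Sox2 was at 3.68, against 9.83 in Cdx2null SI SCs 2. Other gastric markers of that library were near the control Sto SC levels, with Cldn18 at 10.91, Tff2 at 11.18 and Cblif at 10.56, against 11.95, 11.36 and 8.99 in Cdx2null SI SCs 2.

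Cdx2, the targeted gene, separated the small intestine from the stomach but not the Cdx2null cells from both. Its level was 8.41 and 4.88 in Cdx2null SI SCs 1 and 2, 5.08 and 4.67 in control Sto SCs, and 9.04, 10.05 and 8.94 in control SI SCs. Thus the first Cdx2null library lay just under the lowest control SI SC array, and the second lay between both control Sto SC arrays. Probes of this array type are spread along the whole transcript, so the value can also read any exon that the deletion leaves and is no check of the deletion. Both Cdx2null libraries were read by the same probe set, and the cause of the gap between 8.41 and 4.88 was not tested. Whole Sto organoids had Cdx2 at 4.72 and 5.57 in SI medium and at 4.57 in Sto medium, against 5.52, 9.92 and 9.67 in SI organoids in SI medium and 9.19 in Sto medium. The low value among SI organoids belonged to the library with stomach markers.

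Cdx1 was low in both Cdx2null libraries. It was at 4.79 and 4.46 in Cdx2null SI SCs, 4.88 and 4.84 in control Sto SCs, and 7.33, 7.90 and 6.88 in control SI SCs, and the arrays of the Cdx2null and control SI groups did not overlap. In Sto organoids it was at 4.79 and 4.40 in SI medium and at 5.03 in Sto medium, against 4.73, 8.28 and 8.07 for SI organoids in SI medium and 8.48 in Sto medium. The SI organoids other than the library labelled 1 were thus all above the 3 control SI SC arrays.

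Isx had the widest range of the 3 genes. It was at 4.02 and 3.86 in Cdx2null SI SCs, 3.61 and 3.77 in control Sto SCs, and 8.03, 9.33 and 7.33 in control SI SCs. In Sto organoids it was at 4.74 and 4.85 in SI medium and 3.86 in Sto medium, against 4.64, 9.79 and 10.03 for SI organoids in SI medium and 9.55 in Sto medium. Among the arrays labelled control SI SCs or SI organoids, Isx was at 4.64 in SI organoids in SI medium 1 and at 7.33 or above elsewhere. The highest value of the stomach and Cdx2null groups was 4.85, so SI organoids in SI medium 1 lay inside their range.

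**Figure D1:**
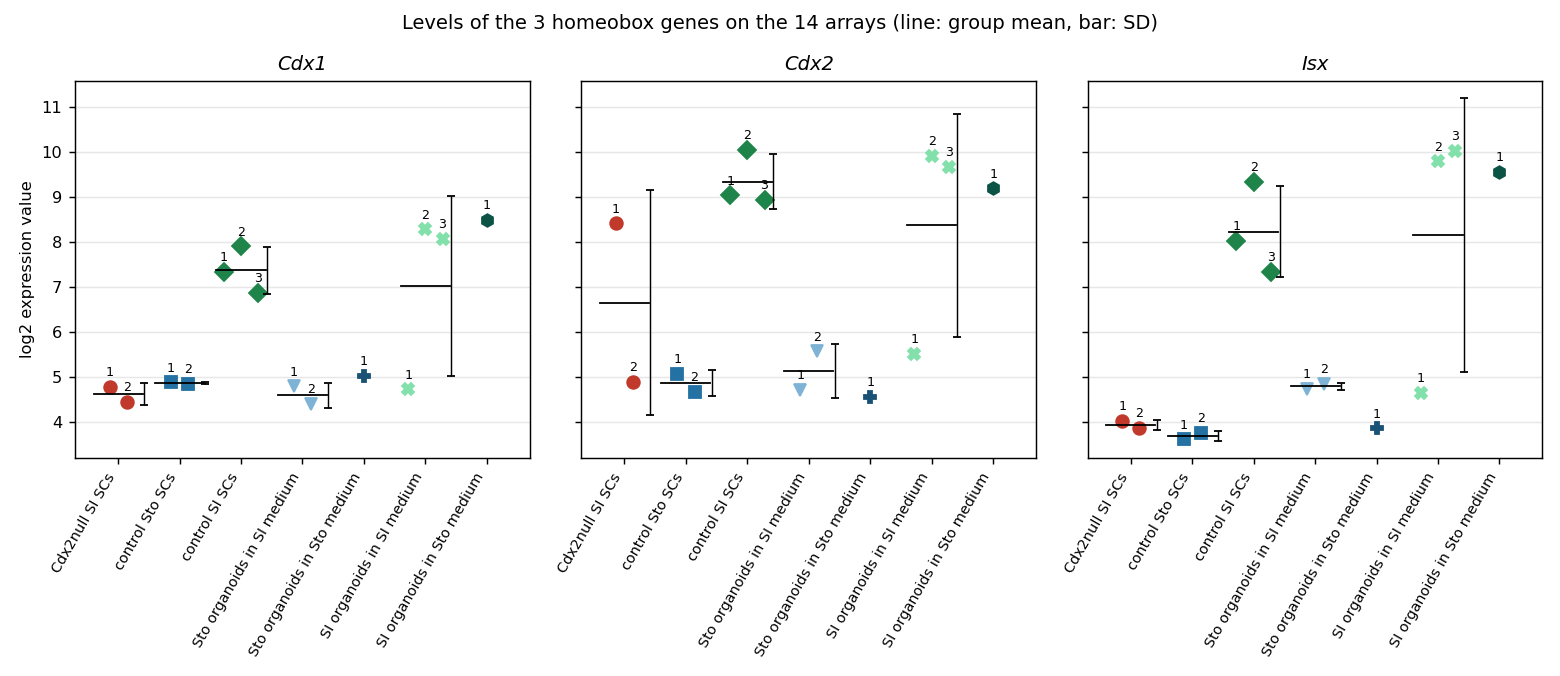
Log2 expression values (y axis) of Cdx1, Cdx2 and Isx by group (x axis). Each numbered point is 1 array, the line is the group mean and the bar its SD in groups of 2 or 3 arrays. Cdx1 and Isx are low in both Cdx2null SI SC arrays, Cdx2 is at 8.41 in the first and 4.88 in the second, and the first of the 3 SI organoid arrays in SI medium is low for each of the 3 genes.

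By group means, Cdx1 ran from SI organoids in Sto medium (8.48, 1 array) through control SI SCs (7.37 ± 0.52, SD, n = 3) and SI organoids in SI medium (7.02 ± 1.99, SD, n = 3) to Sto organoids in Sto medium (5.03, 1 array). Control Sto SCs (4.86 ± 0.03), Cdx2null SI SCs (4.62 ± 0.24) and Sto organoids in SI medium (4.6 ± 0.28, SD, n = 2 each) came last. SI organoids in SI medium overlapped with both neighbours in this order, as Cdx2null SI SCs did with Sto organoids in SI medium. Cdx2 ran from control SI SCs (9.34 ± 0.61) through SI organoids in Sto medium (9.19) and in SI medium (8.37 ± 2.47) to Cdx2null SI SCs (6.65 ± 2.50). Sto organoids in SI medium (5.14 ± 0.60), control Sto SCs (4.87 ± 0.29) and Sto organoids in Sto medium (4.57) followed, and all neighbours in this order overlapped except the last pair. For Isx the order was SI organoids in Sto medium (9.55), control SI SCs (8.23 ± 1.02), SI organoids in SI medium (8.15 ± 3.04), Sto organoids in SI medium (4.79 ± 0.08), Cdx2null SI SCs (3.94 ± 0.11), Sto organoids in Sto medium (3.86) and control Sto SCs (3.69 ± 0.11). Only control SI SCs with SI organoids in SI medium, and these with Sto organoids in SI medium, overlapped here. The means and SDs of SI organoids in SI medium include the library labelled 1, and those of Cdx2 in Cdx2null SI SCs include the library labelled 1 of that group.

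The 3 genes varied together over the arrays with 1 exception. Over 14 arrays Pearson's r was 0.98 for Cdx1 with Isx, 0.89 for Cdx2 with Isx and 0.89 for Cdx1 with Cdx2. Without Cdx2null SI SCs 1 the last 2 values were 0.97 and 0.96 over 13 arrays. For Cdx1 and Isx the arrays form a high and a low cluster, and Cdx2null SI SCs 1 is in the low one although its Cdx2 was at 8.41. Within the 6 high arrays r was 0.93 for Cdx1 with Isx, 0.74 for Cdx2 with Isx and 0.58 for Cdx1 with Cdx2, and within the 8 low arrays it was -0.46 for Cdx1 with Isx. These are descriptions over arrays that share groups. Among control SI SCs, array 2 was the highest for each of the 3 genes. It was also the only one of the 3 with Xist, which is expressed in female cells, at 11.7, against 3.35 and 3.77 in arrays 1 and 3, while both Cdx2null SI SC and both control Sto SC arrays were between 11.3 and 12.1. Control SI SCs thus held samples of both sexes, and so of more than 1 mouse. A term for sex leaves only array 2 as the control SI SC side of the comparison with Cdx2null SI SCs, which makes it an arm of 1 sample, the highest of its group for each gene. With that term, Cdx1 fell by 3.28 (adjusted p = 0.00738) and Isx by 5.39 (adjusted p = 0.00299) in Cdx2null relative to control SI SCs, and Cdx2 differed by -3.40 (adjusted p = 0.500).

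**Figure D2:**
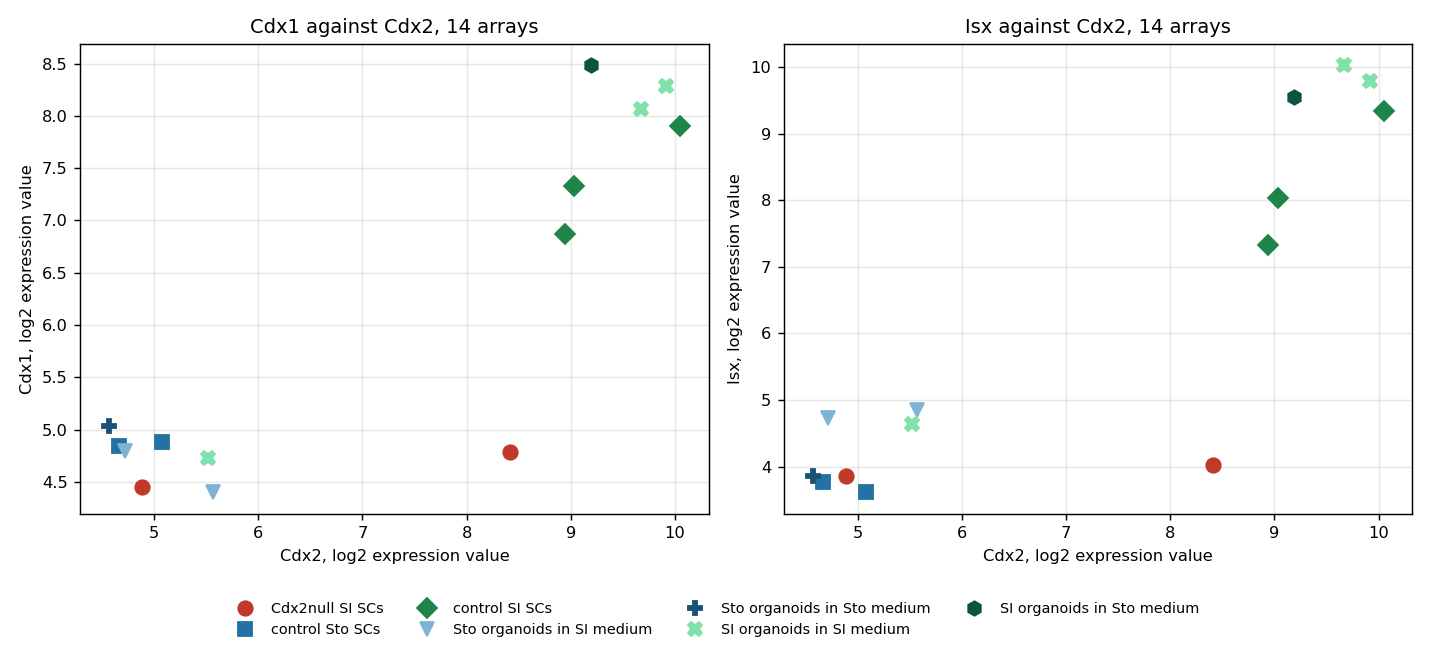
Cdx1 (left) and Isx (right) on the y axes against Cdx2 on the x axes, all as log2 expression values, 1 point for each of the 14 arrays and a symbol for each group. One Cdx2null SI SC array stands alone, with Cdx2 at 8.41 but Cdx1 at 4.79 and Isx at 4.02.

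The first comparison sets sorted stem cells with and without Cdx2 recombination side by side. Differences were fitted with limma, and a gene was called where its Benjamini-Hochberg adjusted p over all 18820 genes was under 0.05 and its fold at least 2. Cdx1 fell in Cdx2null SI SCs relative to control SI SCs by 2.75 on the log2 scale (SE 0.29, 6.71-fold, adjusted p = 0.00739), and Isx fell by 4.29 (SE 0.51, 19.6-fold, adjusted p = 0.0116). For Cdx2 the difference was -2.69 (SE 0.93, 95% interval -4.88 to -0.50, adjusted p = 0.295), which was not called. Thus 2 of the 3 genes were called lower, where 0.595% of all genes tested were. With that group's library 1 left out, Cdx2 fell by 4.46 (SE 0.46, adjusted p = 0.0129), and all 3 genes were called lower, beside 0.691% of all genes. Without Cdx2null SI SCs 2, on the other hand, neither Cdx1 (-2.58, adjusted p = 0.0585) nor Isx (-4.21, adjusted p = 0.0820) was called. In these bulk samples fewer cells of a type and less RNA per cell cannot be told apart.

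The second comparison is that of the organs. In control Sto SCs relative to control SI SCs, Cdx1 fell by 2.51 (SE 0.29, adjusted p = 0.00780) and Isx by 4.54 (SE 0.51, 23.3-fold, adjusted p = 0.00670), and these 2 of the 3 genes were called where 0.914% of all genes were called lower. Without control Sto SCs 1 neither Cdx1 (adjusted p = 0.0564) nor Isx (adjusted p = 0.0538) was called, and without control Sto SCs 2 Cdx1 was not (adjusted p = 0.0611). Cdx2 differed by -4.47 (SE 0.93, 22.2-fold, adjusted p = 0.0542), just above the threshold of the adjusted p, so it was not called. The 3 SC groups share 1 estimate of the spread. Without Cdx2null SI SCs 1 the same difference had an SE of 0.36 and an adjusted p of 0.00304 and was called, as were Cdx1 and Isx, beside 1.04% of all genes called lower. This comparison shares its control SI SC arrays with the one before, so the pair is not independent.

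Set directly against control Sto SCs, Cdx2null SI SCs differed by -0.24 for Cdx1 (95% interval -1.0 to 0.52), 1.78 for Cdx2 (-0.62 to 4.18) and 0.25 for Isx (-1.08 to 1.58), each with an adjusted p of 1. With limma 0 of 18820 genes were called here (0%), while 286 had an unadjusted p under 0.05, and the methods' t-test at an unadjusted p called 15. Leaving out Cdx2null SI SCs 1, the Cdx2 difference was 0.01 (-1.17 to 1.20), with 0 genes called by limma and 336 at an unadjusted p under 0.05.

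**Figure D3:**
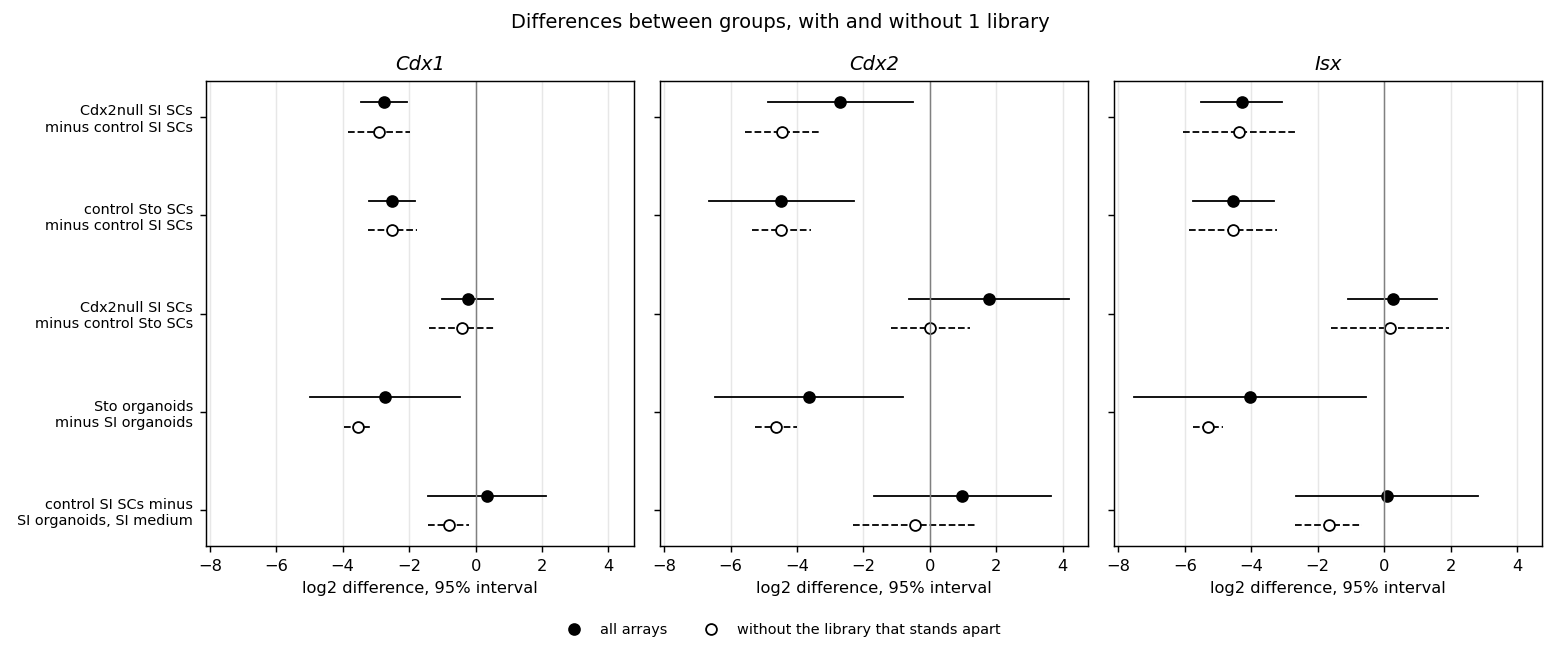
Log2 differences of Cdx1, Cdx2 and Isx (x axis) with their 95% intervals in 5 comparisons (rows), from limma. Filled points use all arrays and open points leave out 1 library, Cdx2null SI SCs 1 in the upper 3 rows and SI organoids in SI medium 1 in the lower 2. The Cdx2 value in the first row is -2.69 with all arrays and -4.46 without that library.

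In whole organoids the 3 genes were lower on average in those from the stomach, and whether they were called depended on 1 library. With medium as a second term, Sto organoids differed from SI organoids by -2.73 for Cdx1 (SE 0.92, adjusted p = 0.308), -3.64 for Cdx2 (SE 1.15, adjusted p = 0.291) and -4.05 for Isx (SE 1.42, adjusted p = 0.319). With limma 0 genes of all tested were called (0%), although 2595 had an unadjusted p under 0.05 and the methods' t-test at an unadjusted p called 505. Without the library labelled SI organoids in SI medium 1, Cdx1 fell by 3.53 (SE 0.17, adjusted p = 0.00148), Cdx2 by 4.64 (SE 0.25, adjusted p = 0.00204) and Isx by 5.31 (SE 0.18, 39.6-fold, adjusted p = 0.000823). All 3 were then called, beside 1.19% of all genes called lower. That fit drops 1 of 7 organoid arrays after its markers had been seen.

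No difference by medium was called for the 3 genes. Sto medium against SI medium gave 0.98 for Cdx1 (SE 1.00), 0.16 for Cdx2 (SE 1.26) and 0.30 for Isx (SE 1.56), with adjusted p from 0.847 to 0.989 and 0% of all genes called, while 1816 genes had an unadjusted p under 0.05 and the methods' t-test at an unadjusted p called 121. Without SI organoids in SI medium 1 the 3 values were 0.37, -0.59 and -0.65, with adjusted p from 0.218 to 0.396, and 0.0266% of all genes were called. Each origin had 1 array in Sto medium, and by Xist that of Sto organoids differed in sex from those in SI medium. In both of those arrays the 3 genes stood with their origin, since SI organoids in Sto medium had Isx at 9.55 and Sto organoids in Sto medium had it at 3.86.

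Sorted cells and whole organoids differ in both sort and medium. Control SI SCs against SI organoids in SI medium gave 0.34 for Cdx1 (SE 0.79), 0.97 for Cdx2 (SE 1.19) and 0.08 for Isx (SE 1.21), and none was called, where 0.159% of all genes were called in either direction. Without SI organoids in SI medium 1 each value turned negative, to -0.80 for Cdx1 (SE 0.27, adjusted p = 0.138), -0.45 for Cdx2 (SE 0.82, adjusted p = 0.890) and -1.68 for Isx (SE 0.45, adjusted p = 0.0605), again with no call, beside 5.11% of all genes. In that fit 6 of 7 enterocyte markers were called lower in the sorted cells, and their part in the Isx value was not tested. Control Sto SCs against Sto organoids in SI medium gave 0.27 for Cdx1, -0.27 for Cdx2 and -1.10 for Isx (SE 1.49), with adjusted p from 0.809 to 0.972, where 6.03% of all genes were called. For Isx the sorted cells, at 3.61 and 3.77, lay below the organoids, at 4.74 and 4.85, without overlap. Subtracting the stomach-intestine difference of organoids in SI medium from that of SCs left -0.08 for Cdx1, -1.25 for Cdx2 and -1.18 for Isx (SE 1.25 to 1.92, none called, 0.845% of all genes). Without SI organoids in SI medium 1 these were 1.07, 0.18 and 0.57, again not called, beside 4.54% of all genes.

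Genes that Cdx factors are known to drive were then set beside the 3 genes. Of 18 measured genes of that list, 4 fell and 0 rose in Cdx2null SI SCs relative to control SI SCs, where 0.595% of all genes were called lower and 0.93% higher, with a median difference of -1.28 against 0.03 over all genes. They were Alpi, the intestinal alkaline phosphatase, which fell by 5.29 (SE 0.24, adjusted p = 0.000694), the secreted lectin Reg4 (by 4.82, adjusted p = 0.00369), the guanylin receptor Gucy2c (by 4.57, adjusted p = 0.00462) and the disaccharidase Sis (by 2.50, adjusted p = 0.0143). Cdh17, the liver-intestine cadherin, differed by -4.06 (SE 0.80, adjusted p = 0.0727) and Heph, the iron-exporting ferroxidase hephaestin, by -2.34 (SE 0.73, adjusted p = 0.245), and neither was called. In control Sto SCs relative to control SI SCs, 7 of 18 fell, where 0.914% of all genes were called lower, these 4 and also Cdh17 (by 6.19), Heph (by 4.03) and the efflux pump gene Abcb1a (by 1.83).

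The Cdx2null libraries lay apart at Cdh17 and Heph. Cdh17 was at 8.44 and 6.04 in Cdx2null SI SCs, at 4.02 and 6.19 in control Sto SCs and at 11.31, 11.51 and 11.09 in control SI SCs. Heph was at 7.21 and 4.38, at 3.69 and 4.53, and at 8.13, 8.25 and 8.02 in the same groups. In contrast, Reg4 was at 3.41 and 3.15 in Cdx2null SI SCs, 3.11 and 3.30 in control Sto SCs and 7.48, 8.99 and 7.84 in control SI SCs, so it was low in both libraries. On a scale where 0 is the mean of control SI SCs and 1 that of control Sto SCs, library 1 stood at 0.21 for Cdx2, 0.23 for Heph and 0.46 for Cdh17, but at 1.03 for Cdx1, 0.93 for Isx, 0.98 for Alpi and 0.96 for Reg4. Library 2 stood at 1.00 for Cdx2, 0.93 for Heph, 0.85 for Cdh17, 1.16 for Cdx1 and 0.96 for Isx. Over the 10 listed genes that differed at least 2-fold between the organs, the median position was 0.92 in library 1 and 0.99 in library 2, and 3 genes (Cdh17, Heph and the vitamin D receptor gene Vdr) in library 1 and 1 (Abcb1a) in library 2 lay under 0.75. Without library 1, Cdh17 fell by 5.26 and Heph by 3.75 in the Cdx2null cells relative to control SI SCs, and Sis was not called. That fit has 1 Cdx2null array and drops the array whose Cdh17 and Heph values lay apart.

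**Figure D4:**
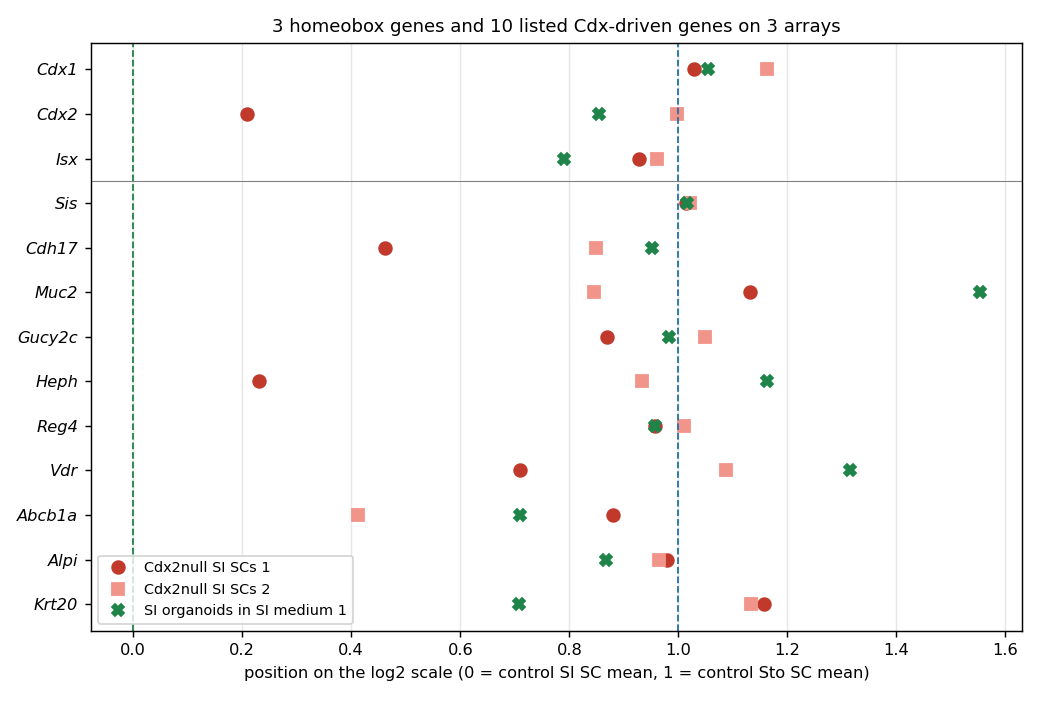
Position of Cdx1, Cdx2, Isx and 10 listed Cdx-driven genes (rows) on 3 arrays, on a log2 scale where 0 is the mean of control SI SCs and 1 the mean of control Sto SCs (x axis). In Cdx2null SI SCs 1 (circles), Cdx2 lies at 0.21, Heph at 0.23 and Cdh17 at 0.46, while Cdx1 and Isx lie at 1.03 and 0.93.

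Among 10 measured factors that act with Cdx2 in gut endoderm, 1 fell and 0 rose in Cdx2null SI SCs relative to control SI SCs. Over all genes 0.595% were called lower and 0.93% higher. The median difference of the list was 0.45, and the highest, 0.96 for Foxa1, was not called. The gene that fell was Hnf4g, a nuclear receptor of the intestinal epithelium, by 1.55 (SE 0.15, adjusted p = 0.00601). It was at 6.40 and 6.62 in Cdx2null SI SCs, 6.81 and 6.54 in control Sto SCs and 8.15, 8.05 and 7.97 in control SI SCs, with no overlap. Its paralogue Hnf4a, which is present in both organs, differed by -0.84 (SE 0.23, adjusted p = 0.179). Gata4 was between 9.19 and 10.46 and Klf5, a crypt factor, between 10.66 and 11.84 on all arrays.

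The 3 genes had 18 measured neighbours on their chromosomes. Of these, Urad beside Cdx2 and Pdgfrb, a growth factor receptor gene beside Cdx1, were called between control Sto and control SI SCs. Both were lower in control Sto SCs than in control SI SCs (log2 difference of Pdgfrb -1.16, adjusted p = 0.0283), where 0.914% of all genes were called lower. No neighbour was called between Cdx2null and control SI SCs (1.52% of all genes in either direction) or between Cdx2null and control Sto SCs (0%). Pdx1, the ParaHox gene next to Cdx2 and a factor of duodenum, antrum and pancreas, was at 8.51 and 6.88 in Cdx2null SI SCs, 8.16 and 7.16 in control Sto SCs and 7.99, 7.19 and 7.0 in control SI SCs, and it differed by 0.30 (SE 0.55, adjusted p = 0.910). Gsx1 was between 4.00 and 5.07 on all arrays. On the other side of Cdx2, Urad, an enzyme of urate breakdown, was at 4.88 and 4.12 in Cdx2null SI SCs, 4.18 and 4.41 in control Sto SCs and 5.60, 6.42 and 5.68 in control SI SCs. It fell in control Sto SCs by 1.61 (adjusted p = 0.0474), while its difference of -1.40 in Cdx2null SI SCs was not called (adjusted p = 0.110). Beside Isx, the high-mobility-group gene Hmgxb4 was between 7.25 and 8.36 and F2rl3, a thrombin receptor, between 3.73 and 4.69 on all arrays. Of the other Cdx genes, Cdx4 stayed between 2.68 and 3.55.

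No gene of the Wnt list, which holds targets and regulators of the pathway upstream of Cdx1, was called beside Cdx1 in the Cdx2null cells. With limma, 0 of 11 measured genes of the Wnt list were called in Cdx2null SI SCs relative to control SI SCs. Over all genes 1.52% were called in either direction, and at that share a count of 0 among 11 genes says little. The median difference of the list was 0.20. The differences ran from -1.03 for Lef1 (95% interval -1.75 to -0.31, arrays without overlap) to 1.55 for Notum (-0.42 to 3.52, overlapping arrays). Axin2, a negative regulator that reports Wnt activity, was at 8.24 and 9.30 in Cdx2null SI SCs, 7.89 and 8.51 in control Sto SCs and 9.18, 9.58 and 8.50 in control SI SCs. It differed by -0.31 (SE 0.42, 95% interval -1.30 to 0.67), with overlapping groups, where Cdx1 fell by 2.75. Lgr5, the R-spondin receptor by which these cells were sorted, differed by -0.17 (SE 0.28), and Ascl2, a stem cell factor under Wnt control, by -0.15 (SE 0.23). Without Cdx2null SI SCs 1, 1 gene of the list was called, the Wnt deacylase Notum, which rose by 3.08 (adjusted p = 0.0455), where 1.01% of all genes were called higher. Notum was at 4.44 and 7.50 in Cdx2null SI SCs, 6.17 and 7.30 in control Sto SCs and 4.48, 4.80 and 3.98 in control SI SCs.

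Sorted stomach cells differed from whole stomach organoids in SI medium at these genes. Control Sto SCs had 6 of 11 genes called higher than Sto organoids in SI medium and 0 lower, where 3.74% of all genes were called higher. Axin2 was at 4.06 and 4.22 in those organoids and 4.06 higher in control Sto SCs (SE 0.40, adjusted p = 0.000720), while Cdx1 was under 5 in both. In SI organoids in SI medium, Axin2 was at 8.23, 8.14 and 8.47 and Cdx1 at 4.73, 8.28 and 8.07. Sort and medium differ together in the comparison of control Sto SCs with those organoids. The 1 array of unsorted Sto organoids in Sto medium had Axin2 at 7.37, against 4.06 and 4.22 in SI medium, and Lgr5 at 9.29, against 4.20 and 4.32. Control Sto SCs had Axin2 at 7.89 and 8.51 and Lgr5 at 10.77 and 11.14, so the unsorted array in Sto medium lay nearer to the sorted cells than to the organoids in SI medium.

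Genes of the Isx and vitamin A list gave 2 genes higher and 2 lower of 16 in Cdx2null SI SCs relative to control SI SCs. Scarb1 and Bco1, the known targets that Isx represses in mice, were not among them. Scarb1 was at 9.63 and 9.40 in Cdx2null SI SCs, 9.58 and 9.63 in control Sto SCs and 9.81, 9.76 and 9.55 in control SI SCs, and it lay between 9.0 and 9.84 over all 14 arrays. Its difference was -0.19 (SE 0.15, 95% interval -0.55 to 0.16, adjusted p = 0.744), so that a rise of more than 0.16 on the log2 scale lies outside the interval, next to a fall of 4.29 for Isx. Bco1 was at 4.10 and 4.06 in Cdx2null SI SCs, 4.06 and 3.96 in control Sto SCs and 4.16, 4.67 and 4.54 in control SI SCs, and it differed by -0.37 (SE 0.18, 95% interval -0.80 to 0.05, adjusted p = 0.514) although the Cdx2null and control SI arrays did not overlap. Over all 14 arrays its maximum was 5.42, in SI organoids in SI medium 2, where Isx was at 9.79.

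The called genes of the list handle retinol and retinal inside the cell. Rbp2, the retinol carrier of absorptive cells, fell by 2.48 (SE 0.23, adjusted p = 0.00504) in Cdx2null SI SCs and Lrat, which esterifies retinol, fell by 2.43 (SE 0.25, adjusted p = 0.00704). The retinal dehydrogenase gene Aldh1a1 rose by 2.14 (SE 0.33, adjusted p = 0.0290) and the retinal reductase gene Dhrs3 by 1.37 (SE 0.24, adjusted p = 0.0432). In this comparison 0.93% of all genes were called higher and 0.595% lower. Without Cdx2null SI SCs 1 only Aldh1a1 was called higher, and without control SI SCs 3 or with a term for sex 0 genes of the list were. Rbp2 is also on the enterocyte list, of which 5 of 7 genes fell in the same comparison. The retinoic acid receptor gene Rarb was at 7.10 and 6.99 in Cdx2null SI SCs, 4.36 and 6.03 in control Sto SCs and 7.41, 7.48 and 6.72 in control SI SCs. Its difference from control SI SCs was -0.16 (95% interval -1.28 to 0.96), and that of control Sto SCs was -2.01 (adjusted p = 0.0813, not called).

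**Figure D5:**
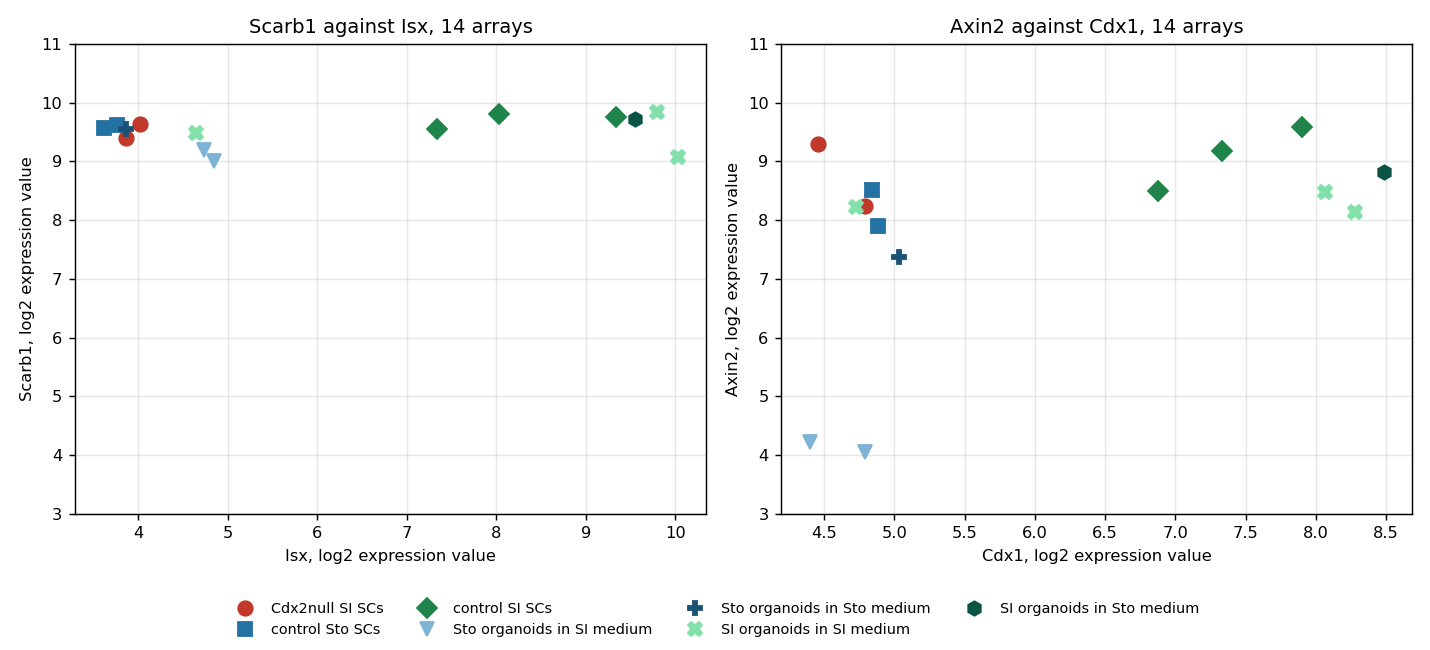
Scarb1 against Isx (left) and Axin2 against Cdx1 (right), as log2 expression values, 1 point for each of the 14 arrays and a symbol for each group. Scarb1 lies between 9.0 and 9.84 over the whole range of Isx, and Axin2 is low only in Sto organoids in SI medium, at 4.06 and 4.22.

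The genes whose levels over the 14 arrays were most like those of each of the 3 genes fell into 2 sets. They were ranked by Pearson's r among genes with a mean above that of the median gene. Reg4 (r = 0.983), the tight junction gene Cldn15, Gucy2c, the mitochondrial aldehyde dehydrogenase gene Aldh1b1, the membrane mucin gene Muc13 and Far2, a fatty acyl reductase gene, came first for Cdx1, the last with r = 0.977. Reg4 (0.983), Muc13, Gucy2c, the brush-border protocadherin gene Cdhr5, Far2 and Cldn15 (0.975) came first for Isx, so that 5 of 6 names were shared. For Cdx2 the 6 were the T-box gene Tbx3 (0.981), Heph (0.975), the sorting nexin gene Snx20 (0.970), Fam234b (0.968), Cdh17 (0.964) and the water channel gene Aqp1 (0.957), none of which was on either other list. Spearman's rho ran from 0.692 to 0.938 for Cdx1 and Isx and from 0.741 to 0.908 for Cdx2.

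Levels in Cdx2null SI SCs 1 parted the sets, and this array took part in choosing them. Tbx3 was at 7.32 and 4.48 in Cdx2null SI SCs, 4.31 and 4.59 in control Sto SCs and 7.82, 8.29 and 7.04 in control SI SCs. Aqp1 was at 9.51 and 5.94, at 5.86 and 5.78, and at 9.57, 9.19 and 9.06 in the same groups. Muc13, by contrast, was at 3.73 and 3.30 in Cdx2null SI SCs, 3.56 and 3.48 in control Sto SCs and 10.06, 10.07 and 8.69 in control SI SCs, and it fell by 6.09 (SE 0.42, adjusted p = 0.00181). The 6 genes most like Cdx2 lay from -0.11 to 0.46 of the way to the stomach level in library 1 and from 0.85 to 1.29 in library 2. Those most like Cdx1 or Isx lay from 0.87 to 0.96 in library 1 and from 0.84 to 1.07 in library 2.

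Markers of gut cell types changed alongside Cdx1 and Isx in the sorted cells, while Cdx2 stayed at 8.41 in Cdx2null SI SCs 1. In Cdx2null SI SCs relative to control SI SCs, 5 of 7 enterocyte markers, 1 of 4 goblet markers, 2 of 5 Paneth markers and 2 of 5 intestinal stem cell markers fell, and 5 of 8 gastric markers rose, among them Cldn18 and Cblif, the gastric intrinsic factor gene. Over all genes 0.595% were called lower and 0.93% higher. With the first Cdx2null library left out, 1 Cdx2null array remained. The median difference was then -2.53 for the enterocyte and 3.11 for the gastric markers, against -2.50 and 2.69 with both libraries. Fewer enterocyte markers were then called, and among gastric markers Gkn1 lost its call while Sox2 gained a call. The mean level of the 7 enterocyte markers was 3.76 to 3.90 in Cdx2null SI SCs, 3.81 to 3.84 in control Sto SCs and 6.01 to 7.07 in control SI SCs, and it reached 11.9 in SI organoids in SI medium. The lowest of these means in that group, 3.96, belonged to the library labelled 1. What part a different mix of cells has in the differences of Cdx1, Cdx2 and Isx was not tested.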

How the data were processed

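RNA of 14 samples was hybridised to 1 array each. The authors made the log2 values with RMA-sketch in Affymetrix Power Tools. This method corrects background and normalises the arrays of a run together, so folds of weak genes are compressed. Whether the pair of arrays numbered 3, with rounded signals and lower upper quartiles (7.50 and 7.57), shared a run with the rest is not stated. They deposited 35556 probe sets, and all 14 columns were matched by name. Of these probe sets 21218 had 1 symbol in the platform table, and keeping the brightest for each gene left 18820 genes. The file's genome build is not given in the sources used here.

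Groups came from the labels. Values were used as deposited and fitted with limma 3.58.1 in R 4.3.3 (lmFit and eBayes, 2-sided, Benjamini-Hochberg over 18820 genes, call at adjusted p under 0.05 and 2-fold). The 7 SC arrays, the 7 organoid arrays (origin and medium) and all 14 arrays entered separate fits. The fits were tested on simulated data first. Named genes were Cdx1, Cdx2 and Isx, the 6 most correlated with each, the 3 measured neighbours on each side (RefSeq, GRCm38.p6) and the lists. Genes and lists were chosen with earlier results of these data known. Alternatives covered normalisation, filters, tests, weights, a term for sex and arrays left out, and refits of the lists and named genes without a library were chosen after seeing the data. The number of arrays limits the precision.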

Additional observations from a re-analysis of the deposited data

Results flagged for a closer look

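For 8 listed genes the difference between stomach and intestine was not the same in sorted stem cells as in organoids in SI medium, by the interaction term of limma over 14 arrays, where 0.845% of all genes were called in either direction. The origin effect in SCs (control Sto minus control SI) minus that in organoids (Sto minus SI) was 5.37 for Lgr5 (SE 0.41, adjusted p = 0.000821), 4.29 for Cldn2 (SE 0.49, adjusted p = 0.00816), 3.83 for Cftr (SE 0.55, adjusted p = 0.0189), 3.60 for Ascl2 (SE 0.44, adjusted p = 0.0121) and 3.25 for Axin2 (SE 0.52, adjusted p = 0.0274). Among gastric markers it was 5.65 for Cblif (SE 0.82, adjusted p = 0.0189), -5.19 for Gkn1 (SE 0.84, adjusted p = 0.0279) and -7.55 for the mucin gene Muc5ac (SE 0.22, adjusted p = 5.47e-07). Lgr5, Ascl2 and Axin2 are 3 of 11 measured genes of the Wnt list, and the claudin gene Cldn2 and the chloride channel gene Cftr are 2 of 18 Cdx-driven genes. Of 8 gastric markers 1 was called higher and 2 lower, and of 16 genes of the Isx and vitamin A list 0 were called. Sort and medium differ together between these SCs and organoids, and the SCs were sorted by EGFP from the Lgr5 locus. The parts of sort and medium in the Lgr5 value were not tested. Without SI organoids in SI medium 1 all 8 stayed called, and of the 18 Cdx-driven genes 10 were then called higher and 1 lower, against 2 and 0 with that array, beside 4.54% of all genes. In both Sto organoids in SI medium Cldn2 was at 4.81 and 6.03, against 9.36 to 10.14 in SI organoids in that medium. No such difference was called for Cdx1, Cdx2 or Isx.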

How the results depend on the processing

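Over the 24 differences of Cdx1, Cdx2 and Isx, 388 of 441 alternative values kept their direction and side of the threshold, 9 lost and 17 gained the call and 27 changed sign. For each case that follows the cause was not tested. With the methods' t-test after Benjamini-Hochberg, no call was left for Cdx1 (-2.75) and Isx (-4.29) in Cdx2null against control SI SCs, or for Cdx1 (-2.51) and Isx (-4.54) in control Sto against control SI SCs. Between control Sto and control SI SCs, Cdx2 became called at -4.53 with quantile normalisation, -4.49 with median centring, -4.25 with array weights and -4.47 with a filter on dim genes, a trend, the unadjusted t-test or only the groups compared. Between Sto and SI organoids the unadjusted t-test called Cdx2 (-3.62) and Isx (-4.02). By medium, Cdx2 and Isx turned to -0.20 and -0.10 with the t-test and to -0.33 and -0.21 with array weights. In control SI SCs against SI organoids, array weights gave -0.78 for Cdx1, -0.61 for Cdx2 and -1.49 for Isx (adjusted p = 0.0416). Isx in control Sto SCs against Sto organoids (-1.10) was called with the unadjusted t-test and with only the groups compared. The interaction of Cdx1 was 0.038 with quantile normalisation, and array weights gave 1.04, 0.34 and 0.38 for Cdx1, Cdx2 and Isx.

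Leaving out 1 replicate gave, for Cdx2null against control SI SCs, -2.99 to -2.48 (Cdx1), -4.46 to -0.93 (Cdx2) and -4.74 to -3.74 (Isx). For control Sto against control SI SCs it gave -2.75 to -2.24, -4.68 to -4.12 and -4.99 to -3.99, and for Sto against SI organoids -3.53 to -2.35, -4.64 to -3.18 and -5.31 to -3.36. By medium, Cdx2 ran from -0.59 to 0.82 and Isx from -0.93 to 1.40. For control SI SCs against SI organoids the ranges were -0.80 to 0.97, -0.45 to 1.75 and -1.68 to 1.02, for Cdx2 in control Sto SCs against Sto organoids -0.70 to 0.15, and for the interaction -0.70 to 1.07, -2.02 to 0.18 and -2.12 to 0.57.

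With the replicate number as a block, Cdx2null against control SI SCs gave -2.99 for Cdx1 (adjusted p = 0.0231), -2.89 for Cdx2 (adjusted p = 0.304) and -4.74 for Isx (adjusted p = 0.0228), and the block changed no call of the 3 genes. Same-numbered arrays correlated at 0.231 to 0.377 in their deviations among SCs and at -0.0606 in organoids, and with 2 shared numbers they were not taken as pairs. Counts of called genes ran, over all alternatives, from 0 to 498 for Cdx2null against control SI SCs (287 as reported), from 0 to 933 for control Sto against control SI SCs (538), from 0 to 17 for Cdx2null against control Sto SCs (0), from 0 to 505 for organoid origin (0), from 0 to 121 for medium (0), from 0 to 1328 for control SI SCs against SI organoids (30), from 0 to 1954 for control Sto SCs against Sto organoids (1135) and from 19 to 1550 for the interaction (159).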
